A study of Mus musculus with 2 samples.

Results

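The 37 genes described here encode chaperones, folding enzymes and translocation machinery of the endoplasmic reticulum (ER), together with targets of its stress response. They were taken by symbol from a list whose rule uses no measured value, although earlier results of these data were known when it was drawn up, and all 37 were found among the 23924 gene symbols of the table. The list holds 11 folding enzymes and chaperones, 17 subunits of the translocon, signal peptidase and oligosaccharyltransferase, and 9 stress response genes. The RNA came from RAW 264.7 cells, a mouse macrophage line, in which mRrp6, a ribonuclease of the nuclear exosome, had been depleted, and which had received lipopolysaccharide (LPS) at 80 ng/ml for 12 h. Depletion and LPS were common to both libraries, so neither is compared here. Nuclear extract, with the cytosol left out, was incubated with rabbit IgG for the control library and with an antibody against nucleolin, a nucleolar RNA-binding protein, for the other. The second library is titled as nucleoplasmic RNA. Its assignment to nucleolin rests on the design text, which names the antibody, and on the column symbol NCL. The question was which transcripts nucleolin holds. Each antibody has 1 library from 1 cell line. No replicate stands behind any difference given here, and no test across libraries was made.

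Proteins bound for secretion or for membranes enter the ER through the Sec61 channel, lose their signal peptide to signal peptidase and receive N-linked glycans from oligosaccharyltransferase. Hsp70- and Hsp90-type chaperones, lectins and disulfide isomerases then fold them. When unfolded proteins accumulate, the sensors Ire1, Perk and Atf6 raise many of these genes through Xbp1, Atf4 and cleaved Atf6. Macrophages stimulated through Toll-like receptors draw on this machinery, since the receptors and many of the cytokines pass through it.

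Known stress control of these genes acts through short promoter elements, and the matching stretches are shown because members of different roles hold them. The ER stress response element was searched on both strands as CCAAT and CCACG with any 9 bases between them (on the other strand CGTGG and ATTGG) in the RefSeq promoters of GRCm38.p6, the assembly of mm10, from 250 bases before to 50 after each start. A promoter was held for 31 of the 37 genes. The element lay in 7 of these 31 genes (22.6%), against 37 of all 27025 genes with a promoter in the table (0.137%). The letters searched came from prior knowledge of the control of such genes, so this contrast is a description and not a test. By role it was found in 6 of 11 folding genes, in 0 of 13 translocon, peptidase and transferase genes, and in 1 of 7 stress response genes. Each line gives the element in capitals, the 12 bases on either side in lower case, the gene's own strand, and its place.
Hspa5 (chr2:34772013-34772055, plus strand): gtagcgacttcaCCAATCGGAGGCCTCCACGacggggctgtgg
Hsp90b1, nearer element (chr10:86705521-86705563, minus strand): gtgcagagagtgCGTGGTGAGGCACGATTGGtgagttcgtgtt
Hsp90b1, farther element (chr10:86705626-86705668, minus strand): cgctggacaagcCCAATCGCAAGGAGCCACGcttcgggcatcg
Calr (chr8:84847063-84847105, minus strand): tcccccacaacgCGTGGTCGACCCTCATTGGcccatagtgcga
Canx (chr11:50325788-50325830, minus strand): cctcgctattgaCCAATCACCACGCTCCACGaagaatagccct
Pdia6 (chr12:17266479-17266521, plus strand): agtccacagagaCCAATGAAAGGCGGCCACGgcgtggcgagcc
Dnajc3 (chr14:118937815-118937857, plus strand): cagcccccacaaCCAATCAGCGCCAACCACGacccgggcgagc
Creld2 (chr15:88819508-88819550, plus strand): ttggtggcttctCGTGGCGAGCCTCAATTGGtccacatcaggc
The element of Hspa5 lay closest to its start, from 65 to 47 bases before it, and the farther one of Hsp90b1 lay from 212 to 194 bases before. A related short element, searched on both strands as ATTGG and CCACG with any 1 base between them (on the other strand CGTGG and CCAAT) and held by 12 of all promoters (0.0365%), was found in Dnajb11 and in Herpud1. That of Herpud1 is shown because this gene was the only member listed in the control library alone.
Herpud1 (chr8:94386365-94386399, plus strand): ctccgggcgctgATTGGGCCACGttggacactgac
Another pattern, TGACGTGG (CCACGTCA on the other strand), occurred in 0.676% of all promoters and in 0 of the 32 promoters of the members. A match is a description of letters, not a site of binding.

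The values are FPKM, fragments scaled to the length of the transcript and to the fragments of the library, summed over the transcript rows of a symbol. Low FPKM fell on the steps of whole fragments, and the steps gave a scale of 23669 fragments for the IgG library and 60896 for the nucleolin library, shallow for both. On a transcript of 1000 bases, 1 fragment was worth 53.0 FPKM with IgG and 21.4 with nucleolin. Equal fragments therefore gave a nucleolin to IgG ratio in FPKM that was 0.405 at 1000 bases and 0.393 at 3000 bases, since slightly different lengths were taken off in each library. Whole fragments were recovered for 2088 of 2198 genes with 1 transcript row, taking as whole an implied transcript length within 0.01 base. A set of 4 RNAs, Rn45s, Lars2, Mir6236 and Mir142b, held 48.7% of all IgG FPKM and 90.1% of all nucleolin FPKM. Differences are log2((nucleolin FPKM + 1) / (IgG FPKM + 1)), over genes with 1 FPKM or more in either library. All 3194 compared genes had a median of -1.27 on this scale.

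More of the ER genes were detected with the nucleolin antibody than with IgG. At 0.1 FPKM or more, 29 of 37 (78.4%) were seen in the nucleolin library and 16 of 37 (43.2%) in the IgG library. Of all gene symbols, 7.23% and 8.4% were seen in the nucleolin and IgG libraries. Among the 30 members compared, 16 were at least 2-fold higher with nucleolin, 3 were at least 2-fold lower and 11 lay within 2-fold. Over all compared genes, 37.8% were higher and 56.7% were lower by the same limit. The members' median was 1.55. Of the 16, 14 were listed at 0 in the IgG library, so their difference depends on the pseudocount and is no fold. Over the 15 members seen in both libraries, the median was -0.31, against -1.19 over the 538 genes seen in both. Within these 15, 2 were higher, 2 were lower and 11 lay within 2-fold, where 3.72% of the 538 genes were higher and 63.6% lower. With every 0 replaced by the worth of 3 fragments, the 25 members with recovered fragments had a median log2 FPKM ratio of -0.61. Equal fragments give a log2 FPKM ratio of -1.35, and the same replacement was not made over all genes.

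**Figure D1:**
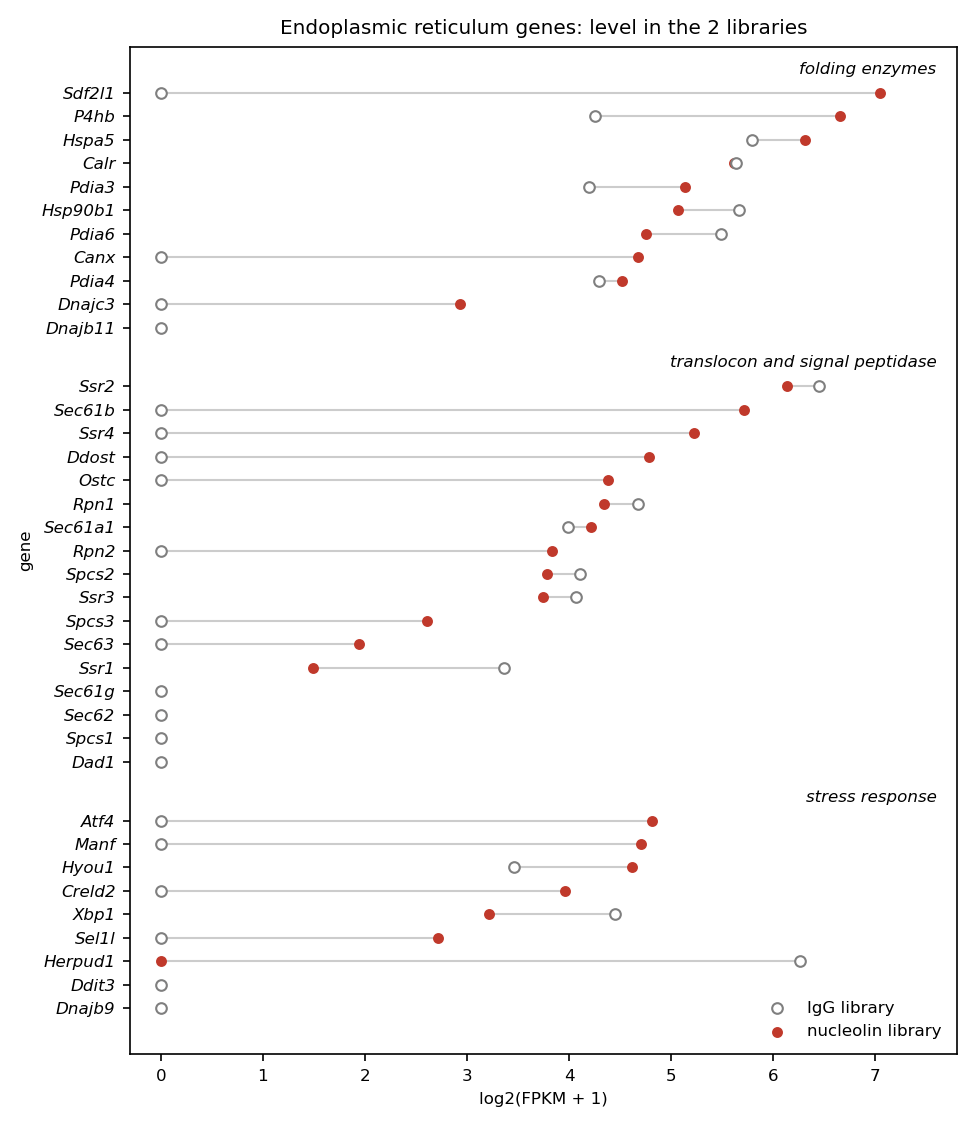
Levels of the 37 ER genes as log2(FPKM + 1) on the horizontal axis, with open grey points for the IgG library and red points for the nucleolin library, 1 library each. In the nucleolin library 29 members lie at 0.1 FPKM or more and in the IgG library 16 do, and 7 members lie at 0 in both.

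Other scalings change the split of calls. With ratios centred on the median of all compared genes, which was -1.27 on the log2 scale, 21 members were higher and 1 was lower, beside 40.2% and 46.5% of all genes. Rescaling so that 1 fragment had equal worth in both libraries gave 22 higher and 1 lower, beside 40.5% and 46.9% of all genes. With equal sums outside the 4 RNAs there were 25 higher and 1 lower, beside 41.8% and 46.8% of all genes. Herpud1 and Ssr1 kept a negative sign under these 3 scalings, whereas Xbp1 did not. The small negative differences of Hsp90b1, Calr, Pdia6, Ssr2, Ssr3, Spcs2 and Rpn1 also turned positive under all 3.

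Recovered fragments take out the different worth of 1 fragment in the libraries. They still depend on depth and on the fitted scales, which rest on 19 genes with IgG and 9 with nucleolin. The members with 1 transcript row had 23 fragments with IgG and 78 with nucleolin, over 23 genes. The ratio was 3.39 nucleolin fragments per IgG fragment, with an exact Clopper-Pearson 95% interval of 2.11 to 5.66. Over all genes with recovered fragments the totals were 1955 and 1947, a ratio of 0.996. These totals were only 8.26% of the IgG and 3.20% of the nucleolin fragments of the library scales. The scales themselves stood at 2.57 nucleolin fragments per IgG fragment. The shares given next are of the recovered part, not of the whole libraries. The ER genes thus held 1.18% of the recovered IgG fragments (0.747 to 1.76%) and 4.01% of the recovered nucleolin fragments (3.18 to 4.97%). More fragments came from nucleolin for 21 of the 23 genes, and more from IgG for Ssr1 and Herpud1. Among all genes with fragments, 42.5% had more with nucleolin and 49.7% more with IgG. In genes seen in both libraries, 12 of 13 members had more nucleolin fragments, against 36.7% of the 338 such genes. Of these 338 genes, 148 had 1 fragment in each library, whereas 0 of the members were tied. The 2 shares are therefore not set at like numbers of fragments per gene. The intervals given here cover counting error only, since fragments without molecular identifiers need not be independent molecules. Without P4hb, which had most nucleolin fragments, the totals were 22 and 64, a ratio of 2.91 (1.77 to 4.96).

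**Figure D2:**
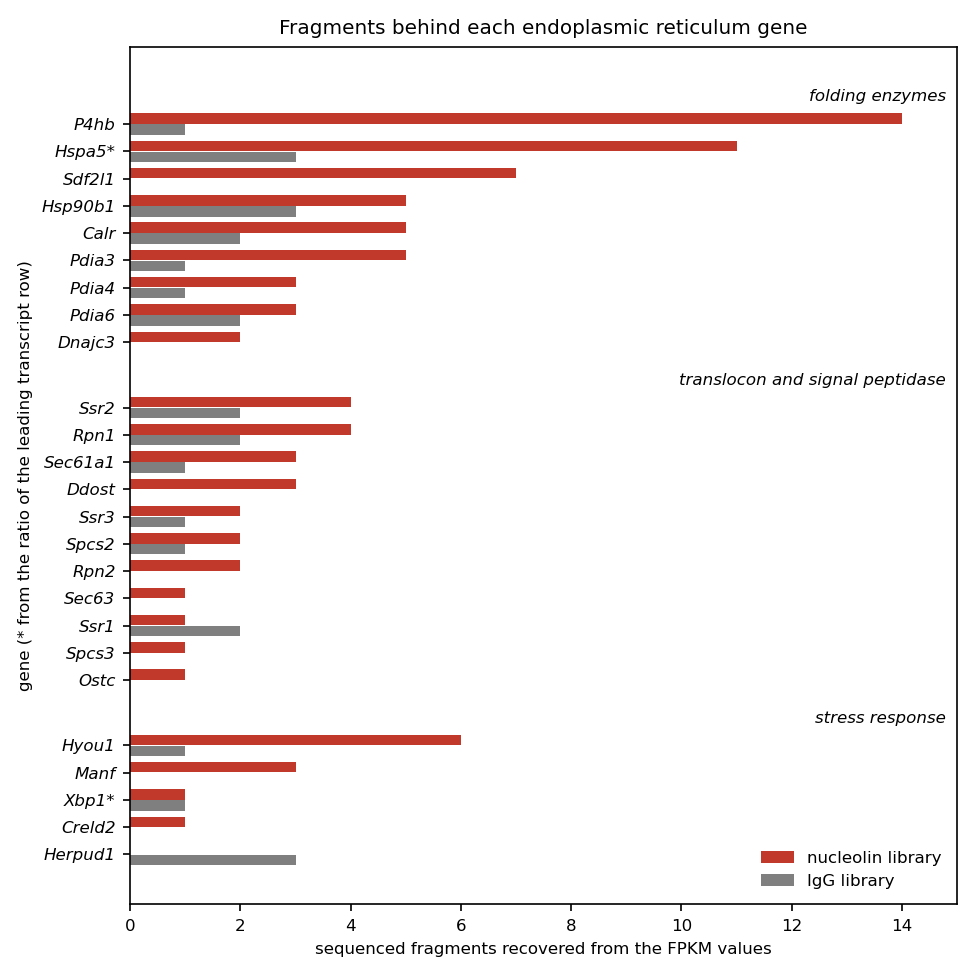
Fragments recovered for 25 ER genes, as bars from 0, in the IgG library (grey) and the nucleolin library (red). An asterisk marks Hspa5 and Xbp1, whose fragments are the smallest whole pair that gives the FPKM ratio of their leading transcript row. P4hb has 1 IgG and 14 nucleolin fragments, and most other members have 5 or fewer in either library.

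The folding enzymes and chaperones had more nucleolin fragments than the other groups of members, with 10 from IgG and 44 from nucleolin over 8 genes. The ratio was 4.40 (2.18 to 9.81), and P4hb alone gave 14 of the 44. This interval overlaps those of the translocon and stress response groups given below, and the difference between groups was not tested. All 8 folding genes had more nucleolin fragments. Among members with 1 transcript row, 5 of the 6 with at least 5 nucleolin fragments were of this kind. Hspa5, whose 11 nucleolin fragments come from the ratio of its leading row, is not among these. Of all genes with recovered fragments, 3.35% had at least 5 with nucleolin. The summed FPKM of the folding group was 250.4 with IgG and 504 with nucleolin over the 11 listed genes. Of the 10 compared, 4 were at least 2-fold higher and 0 lower, with a median log2 difference of 0.73. Of those 4, 3 rest on an IgG value of 0. Over all compared genes 37.8% were higher, near the share in this group, and 56.7% were lower.

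P4hb, the founding protein disulfide isomerase, had 18.1 FPKM with IgG and 99.8 with nucleolin. These values stand for 1 and 14 fragments on a transcript of 2538 bases, an FPKM ratio of 5.52 with a counting interval of 0.839 to 233. P4hb (chr11:120560298-120573253) ranked 50th in the nucleolin library when the 4 RNAs are left out and 1016th in the IgG library. Its difference was the largest of any member seen in both libraries. Its interval holds 1, and lies above the 0.394 that equal fragments give at its length.

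Sdf2l1, which works with the co-chaperone Dnajb11, was listed at 0 with IgG and at 132 FPKM with nucleolin. The nucleolin value stood for 7 fragments on a transcript of 1108 bases. On so short a transcript, 3 IgG fragments would have been worth 139.99 FPKM, above the nucleolin value, so no fold is given. The interval of its FPKM ratio began at 0.580, above the 0.403 of equal fragments at its length. Sdf2l1 (chr16:17130138-17132383) ranked 33rd in the nucleolin library, the highest place of any member. Dnajb11 itself was listed at 0 in both libraries.

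Hspa5, the Hsp70 of the ER lumen (BiP), was at 54.4 FPKM with IgG and 78.5 with nucleolin. The ratio of its leading transcript row fits 3 IgG and 11 nucleolin fragments, for an FPKM ratio of 1.44 (0.376 to 7.96). Its interval also held 1. Hsp90b1, the ER member of the Hsp90 family, had 49.6 FPKM with IgG and 32.5 with nucleolin, from 3 and 5 fragments. Its FPKM was thus lower with nucleolin while its fragments were more, because a nucleolin fragment is worth less.

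The lectin chaperones Calr and Canx bind monoglucosylated glycoproteins. Calr was nearly level in FPKM, at 48.6 with IgG and 48.05 with nucleolin, from 2 and 5 fragments. Canx was listed at 0 with IgG and at 24.5 FPKM with nucleolin, and its 3 transcript rows did not allow its fragments to be recovered. Dnajc3, a co-chaperone of Hspa5, was also listed at 0 with IgG and at 6.63 FPKM with nucleolin, from 2 fragments.

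The other disulfide isomerases of the folding group lay within 2-fold in FPKM. Pdia3, the partner of Calr and Canx, had 17.3 FPKM with IgG and 34.1 with nucleolin, from 1 and 5 fragments. Pdia4 had 18.5 and 21.9 FPKM, from 1 and 3 fragments. Pdia6 had 43.95 and 26.1 FPKM, from 2 and 3 fragments. The counting interval of each of these 3 ratios held 1, and each gene had more nucleolin than IgG fragments. The 7 genes with an ER stress response element, 6 of them folding genes, were all seen in the nucleolin library. So were 29 of all 37 members and 10 of the 11 folding genes. Of the 7, Hspa5, Hsp90b1, Calr and Pdia6 were also seen in the IgG library. A link between the element and recovery with nucleolin was not tested.

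**Figure D3:**
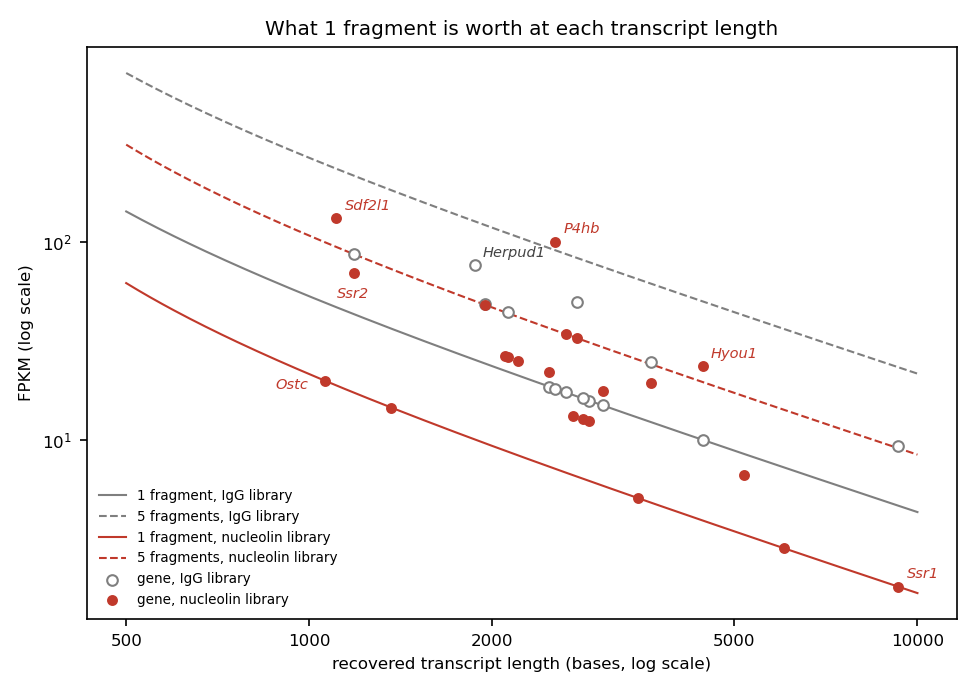
FPKM against the recovered transcript length in bases, both axes logarithmic, for 23 ER genes with 1 transcript row (grey, IgG library; red, nucleolin library), with lines for the worth of 1 and of 5 fragments in each library. Short transcripts need few fragments for a high FPKM, and 6 genes reach 5 nucleolin fragments or more.

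The entry and processing machinery was thinner. Over 11 of its genes, 9 IgG and 24 nucleolin fragments were recovered, a ratio of 2.67 (1.20 to 6.52), and no gene had 5 or more. Of 17 genes, 13 were compared. By FPKM 7 were at least 2-fold higher with nucleolin, all of them listed at 0 with IgG. Of the rest 1 was lower and 5 lay within 2-fold, beside 37.8% higher and 56.7% lower over all compared genes. The median log2 difference of this machinery was 1.94, and -0.32 over its 6 genes seen in both libraries.

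Sec61a1, which forms the channel, was at 14.9 FPKM with IgG and 17.6 with nucleolin, from 1 and 3 fragments. Sec61b, a small subunit beside the channel, was listed at 0 with IgG and at 51.6 FPKM with nucleolin, and its fragments were not recovered. Sec63, which recruits Hspa5 to the channel, was listed at 0 and at 2.83 FPKM, from 1 fragment. The channel was thus seen as its large and one small subunit in the nucleolin library and as the large subunit alone in the IgG library. Sec61g, the other small subunit, and Sec62, the partner of Sec63, were listed at 0 in both.

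The translocon-associated protein complex, which helps some signal sequences to enter, had mixed values. Ssr2 was its most abundant member per length, at 86.2 FPKM with IgG and 69.2 with nucleolin, from 2 and 4 fragments. Ssr3 was at 15.75 and 12.4 FPKM, from 1 and 2 fragments. Ssr1 was at 9.28 and 1.81 FPKM, from 2 and 1 fragments on a transcript of 9306 bases. Ssr1 was the only member of this machinery at least 2-fold lower with nucleolin, a log2 difference of -1.87, and its FPKM ratio of 0.195 had a counting interval that held 1, up to 3.75. Ssr4 was listed at 0 with IgG and at 36.3 FPKM with nucleolin, with no fragments recovered.

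Of signal peptidase, Spcs2 was at 16.2 FPKM with IgG and 12.7 with nucleolin, from 1 and 2 fragments. Spcs3 was listed at 0 and at 5.08 FPKM, from 1 fragment, and Spcs1 at 0 in both. These 3 genes help or form the part of the enzyme around its catalytic subunit. In oligosaccharyltransferase, Rpn1 was at 24.6 FPKM with IgG and 19.3 with nucleolin, from 2 and 4 fragments. The other subunits seen were in the nucleolin library alone, namely Rpn2 at 13.2 FPKM from 2 fragments, Ddost at 26.5 FPKM from 3 fragments and Ostc at 19.8 FPKM from 1 fragment. Dad1 was listed at 0 in both. An IgG value of 0 here allows up to 3 fragments, worth 50.4 FPKM for Rpn2, 67.0 for Ddost and 147 for Ostc, each above the nucleolin value.

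The stress response genes split both ways. By FPKM, 5 of the 7 compared were at least 2-fold higher with nucleolin and 2 were lower, with a median log2 difference of 2.71. Beside this, 37.8% of all compared genes were higher and 56.7% lower. Summed FPKM of the stress response genes was close, at 107 with IgG and 104 with nucleolin. Over the 4 genes with 1 transcript row, 4 IgG and 10 nucleolin fragments were recovered, a ratio of 2.50 (0.721 to 10.9).

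Among the transcription factors, Xbp1, spliced by Ire1 in stress, had 20.9 FPKM with IgG and 8.26 with nucleolin. The ratio of its leading transcript row fits 1 fragment in each library. Its lower FPKM with nucleolin thus equals the difference in what a fragment is worth, and with 1 fragment the split over its 2 transcript rows is not read here. Atf4, translated when Perk is active, was listed at 0 with IgG and at 27.1 FPKM with nucleolin. Ddit3, a target of Atf4, and Dnajb9, a target of Xbp1, were listed at 0 in both.

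Herpud1, a membrane protein of the degradation complex (chr8:94386429-94395371), went the opposite way. It was at 75.97 FPKM in the IgG library, from 3 fragments, and was listed at 0, or 0 fragments, in the nucleolin library. Of the 25 members with an interval of the FPKM ratio, Herpud1 was the only one whose interval left out 1, with an upper bound of 0.959, and this count is not adjusted for 25 intervals. The same interval holds the 0.396 that equal fragments give at its length, and the members whose intervals lay above equal fragments were P4hb and Sdf2l1. Sel1l, the adaptor of the same degradation complex, was listed at 0 with IgG and at 5.55 FPKM with nucleolin.

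Hyou1, an Hsp70-like exchange factor of Hspa5, had 9.99 FPKM with IgG and 23.5 with nucleolin (chr9:44379490-44392369). Its values stand for 1 and 6 fragments on 4432 bases, an FPKM ratio of 2.35 (0.285 to 108). With P4hb it was 1 of the 2 members seen in both libraries and at least 2-fold higher with nucleolin. Manf, a secreted protein that binds Hspa5, was listed at 0 with IgG and at 24.98 FPKM with nucleolin, from 3 fragments. Creld2, a disulfide isomerase, was listed at 0 and at 14.5 FPKM, from 1 fragment. For none of the 9 members listed at 0 with IgG and with recovered fragments did the nucleolin value exceed the worth of 3 IgG fragments.

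Genes of neighbouring ER functions, from lists set beside the members, were seen in 34.7% of cases in the nucleolin library and in 24.8% in the IgG library. Of 121 such genes in the table, 57 were compared, with 28 at least 2-fold higher with nucleolin, 25 lower and a median log2 difference of 0.23. The shares over all compared genes, 37.8% higher and 56.7% lower, stand beside this count and those of each list below. The neighbouring genes held 29 IgG and 46 nucleolin fragments over 41 genes, a ratio of 1.59 (0.975 to 2.62). The interval overlaps that of the members, and the difference between the lists was not tested.

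By function, both genes seen of the signal recognition particle and its receptor, Srp54a at 1.36 FPKM and Srp54b at 1.79 FPKM, were in the nucleolin library alone, of 11 listed. They are near-identical copies, so their reads may be shared. Among 19 further translocon, peptidase and transferase genes, 3 were higher and 3 were lower. Stt3a, a catalytic transferase subunit, had 16.9 FPKM with IgG and 6.67 with nucleolin, from 1 fragment in each library. Its relative Stt3b had 21.0 FPKM with IgG, from 2 fragments, and was listed at 0 with nucleolin. Sec11c, a catalytic subunit of signal peptidase, was listed at 0 with IgG and at 30.6 FPKM with nucleolin, from 1 fragment. Emc10, of the membrane protein insertion complex, was listed at 0 and at 10.1 FPKM, also from 1 fragment.

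Among 23 further folding genes, 5 were higher and 6 lower. The prolyl isomerase Fkbp2 was at 95.7 FPKM with IgG and listed at 0 with nucleolin. Sep15, a selenoprotein of the ER lumen, had 64.7 and 25.8 FPKM, from 2 fragments in each library. The prolyl isomerase Ppib had 55.8 and 45.2 FPKM, from 1 and 2 fragments. Both Fkbp2 and Sep15 were lower with nucleolin by the 2-fold limit, and Ppib lay within it. The lower FPKM of Sep15, as of Stt3a, equals the difference in what a fragment is worth.

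Of 20 genes of ER-associated degradation, 4 were higher and 4 lower. Derl1, a channel protein of this pathway, was in the IgG library alone, at 14.4 FPKM from 1 fragment, as Herpud1 was from 3 fragments. Edem1, a mannosidase-like protein, was in the nucleolin library alone, at 8.76 FPKM from 3 fragments. The ligase Syvn1, with no fragments recovered, was in the nucleolin library alone at 5.72 FPKM, as Sel1l was. Of 20 sensors and further stress targets, 4 were higher and 3 lower. Asns, an Atf4 target, had 24.5 FPKM with IgG and 9.70 with nucleolin, from 1 fragment in each library. Ppp1r15b, which reverses the action of Perk, was at 7.85 FPKM with IgG, from 1 fragment, and listed at 0 with nucleolin. The transcription factor Cebpb was listed at 0 with IgG and at 25.6 FPKM with nucleolin, from 2 fragments.

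Of 30 genes of export from the ER and retrieval to it, 10 were higher and 9 lower. Arf1, a coat-recruiting GTPase, had 105.9 FPKM with IgG and 20.99 with nucleolin. Sar1b, the GTPase that starts the export coat, had 40.2 FPKM with IgG, from 1 fragment, and was listed at 0 with nucleolin. The coat subunit Copa had 9.54 and 22.4 FPKM, from 1 and 6 fragments. Cytosolic and mitochondrial chaperones, a comparison outside the ER, had 8 higher and 12 lower of 20 compared, with a median log2 difference of -1.42. Their fragments were nearly even, at 26 with IgG and 29 with nucleolin over 18 genes, a ratio of 1.12 (0.634 to 1.97). This interval lies below that of the ER members, 2.11 to 5.66, but overlaps their interval without P4hb, 1.77 to 4.96. The difference from the ER members was not tested. Hspa8, the constitutive cytosolic Hsp70, had 178 FPKM with IgG and 70.3 with nucleolin, from 8 fragments in each library. Hsp90ab1 had 147 and 50.6 FPKM, from 8 and 7 fragments.

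**Figure D4:**
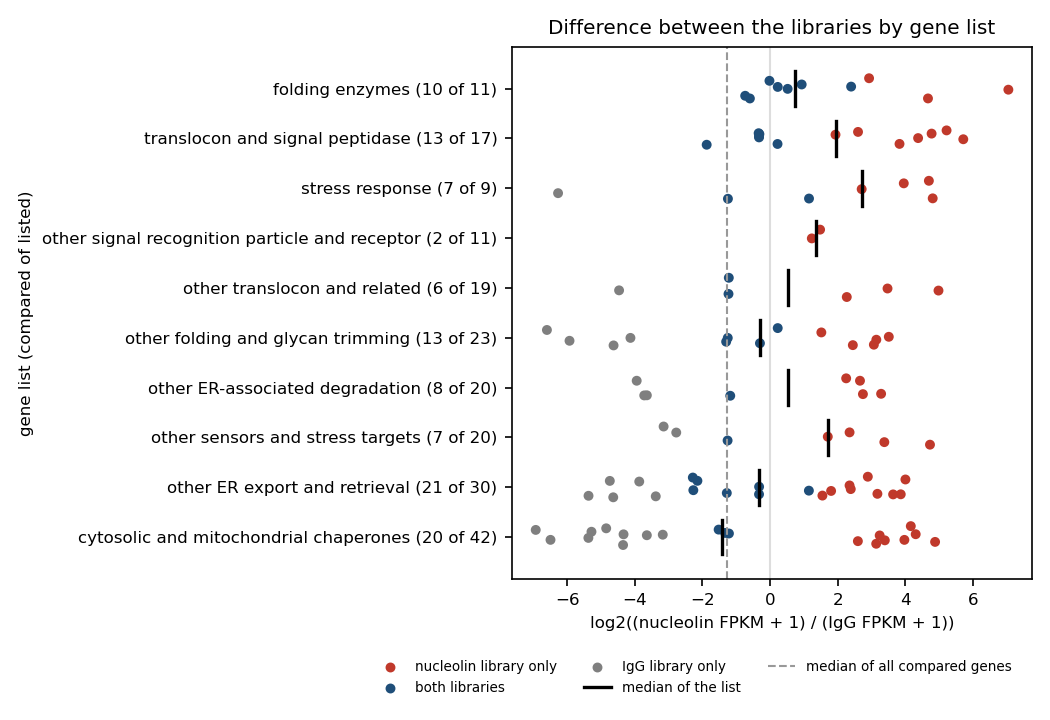
Log2((nucleolin FPKM + 1) / (IgG FPKM + 1)) of each compared gene by list, with the list median as a black mark and the median of all compared genes, -1.27, as a dashed line, 1 library per antibody. The ER members have a median of 1.55 and the cytosolic and mitochondrial chaperones one of -1.42, and genes listed at 0 in a library lie toward the ends.

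The control library also held RNA of other tissues. Of 18 gastric and digestive genes, 16 were seen in the IgG library alone, with a summed 21580 FPKM and 0 in the nucleolin library. Of 6 epithelial genes, 5 were seen in the IgG library alone, with 448 FPKM and 0, and only Epcam was at 0 in both. Fibroblast markers summed to 34.6 FPKM and 0, from 2 of 4 genes, and of the 3 hepatocyte markers Apoa1 was at 215 FPKM and 0, with Alb and Ttr at 0. The plasma cell markers Igj, Mzb1 and Sdc1 were at 0 in both. Cells that secrete digestive enzymes also express ER genes, and the part of this RNA in the members' IgG values was not tested. Without the gastric and epithelial markers, the members' share of the recovered IgG fragments was 1.21%. That step took out only the recovered fragments of these markers, 40 gastric and 16 epithelial. The 40 include 2 fragments of Clps, at 4349 FPKM. Its implied length is shorter than the bases taken off the length in the nucleolin library, so these 2 are not reliable. The implied lengths of Gkn2, with 4 fragments, and of Pla2g1b, with 10, were also short. Because the smallest whole number is taken, the gastric fragments removed may be too few. Pgc at 5078 FPKM and Tff1 at 2915 FPKM had no recovered fragments and were in neither share. The share of 1.21% therefore cannot show how much the RNA of other tissues matters.

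Of the markers of the labelled cell type, 11 of 13 macrophage genes were compared, with 4 at least 2-fold higher with nucleolin, 4 lower and summed values of 788 FPKM with IgG and 688 with nucleolin. Cd14, the LPS co-receptor, was at 319 and 207 FPKM, whereas Lyz2 was listed at 0 with IgG and at 199.6 FPKM with nucleolin, and Csf1r at 0 and at 22.6 FPKM. The lower markers were Cd68 at 138 and 16.2 FPKM, Tyrobp at 116 and 49.4, Ctss at 73.2 and 29.2, and Mpeg1 at 10.2 and 4.00. Adgre1, under its older symbol Emr1, and Cd52 were listed at 0 in both. The macrophage markers with 1 transcript row and recovered fragments, which leave out Cd68, Tyrobp, Ctss and Itgam, had 15 with IgG and 42 with nucleolin over 7 genes, a ratio of 2.80 (1.52 to 5.44), which overlaps the ER members' interval. The part of macrophage RNA content in the difference of the ER genes was not tested. In bulk RNA, fewer cells of a type and less RNA per cell cannot be told apart.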

How the data were processed

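RNA recovered with IgG or anti-nucleolin antibody was sequenced, 1 library each. The deposited table gives FPKM per transcript row, per the file headers. FastQC 0.10.0, Trimmomatic 0.32 and mm10 were used, per the submitters' processing notes. The aligner, the quantifier, the use of strand and the treatment of duplicates were not given in the sources used here. Of 33529 rows, 56 had no symbol (0.0364% of the IgG and 0.0794% of the nucleolin FPKM) and were left out. The rest were summed per symbol. Genes with 1 FPKM or more in either library were compared, with a pseudocount of 1 FPKM, a limit of 2-fold and 0.1 FPKM as detected.

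Whole fragments came from the FPKM steps: genes of 1 row on the line of 1 fragment gave each library's scale and the 203 (IgG) or 234 (nucleolin) bases taken off the length. A gene's fragments are the smallest whole pair, up to 40 (10 where 1 library is at 0), whose implied length is whole within 0.01 base. The recovery was tested on simulated data, where 99.8% of the fragments found were true. Simulated lengths reached neither the 222 bases implied for Clps nor the 9306 of Ssr1, so such lengths were not covered. Intervals are exact Clopper-Pearson at 95%. An IgG value of 0 allows 3 fragments. Of the resolved genes, 74.6% had at most 1 fragment in each library.

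Positions and promoters come from RefSeq tables of GRCm38.p6. Tools were Python 3.11.15, pandas 2.3.3, numpy 2.4.6, scipy 1.17.1 and matplotlib 3.10.9. Every member was named, and from each other list the 2 genes with the highest FPKM in each library, of which 1 is not reported here. Members and lists were chosen with earlier results of these data known. Alternatives were other pseudocounts, minimums, row choices and scalings.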

Additional observations from a re-analysis of the deposited data

How the results depend on the processing

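The members' median log2 difference of 1.55 stayed above 0 under the planned settings, with 1.84 and 0.87 with pseudocounts of 0.1 and 5 FPKM, 0.94 with a minimum of 10 FPKM, 2.81 centred on all genes, 2.75 with equal worth of 1 fragment and 2.84 with equal sums outside the 4 RNAs. It turned to -0.61 over the 25 members with fragments when 0 was set to 3 fragments, an alternative chosen after seeing the data. Equal fragments give -1.35, and this replacement was not made over all genes. Over members in both libraries the median was -0.31. In the same order, the folding enzymes (0.73) gave 0.75, 0.65, 0.52, 2.0, 2.06 and 2.15, the translocon and peptidase genes (1.94) gave 4.87, 0.65, 2.03, 3.21, 3.04 and 3.12, and the stress response genes (2.71) gave 5.82, 1.08, 2.56, 3.98, 3.92 and 4.01. The number of members at least 2-fold higher, 16, was 14 with a pseudocount of 5 FPKM and 12 with a minimum of 10 FPKM. It was 21 with centring, 22 with equal worth and 25 with equal sums. The number lower, 3, was 2 with that pseudocount and with that minimum, and 1 with each of the 3 scalings. Over all compared genes, 26.1% were higher and 50.3% lower with that pseudocount, and 22.0% and 70.7% with that minimum. The sign turned for 13 named genes under a scaling, of which 8 lay within 2-fold to begin with (Hsp90b1, Calr, Pdia6, Ssr2, Ssr3, Spcs2, Rpn1 and Ppib, turning to between 0.53 and 1.41) and 5 did not. Xbp1 (-1.24) went to 0.024 centred, 0.0052 with equal worth and 0.096 with equal sums. Asns (-1.25) went to 0.014, 0.0089 and 0.10. Stt3a (-1.23) went to 0.041 centred and 0.090 with equal sums. With equal worth and equal sums, Sep15 (-1.30) went to 0.018 and 0.11, and Hspa8 (-1.33) to 0.0068 and 0.10. Keeping genes under 1 FPKM or taking the highest row moved no median of the members. The fragment ratio of 3.39 was 2.91 without P4hb, 3.33 with Hspa5 and Xbp1 and 2.85 over members in both libraries, alternatives also chosen later. No paired analysis was possible because each group had 1 library, and for the same reason no library could be left out. Depth limits every member: most have 5 or fewer fragments in a library.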
